A study of Homo sapiens with 1 sample.

Results

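The peaks described here are those of the zebrafish Zbtb21K419/845R double mutant that lay deep inside human genes. A peak was counted when its summit lay within at least 1 gene of the RefSeq annotation of GRCh38.p14, of any biotype, and more than 5 kb from both ends of every gene on its chromosome. In the list, 372 of 913 peaks met this rule, and they are called deep peaks below. Of the remaining peaks, 233 had a gene end within 5 kb and 308 were intergenic. The strength of a peak played no part in the choice.

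The ChIP-seq library was made from HEK293T cells, an established line derived from human embryonic kidney, which expressed the double mutant of Zbtb21 from a transfected plasmid. In this mutant both SUMO acceptor lysines are replaced by arginine. Chromatin was fixed with formaldehyde, sheared with an enzyme and immunoprecipitated with an antibody that neither the labels nor the methods name. There was 1 library and no replicate, and no library of wild type Zbtb21, of empty vector or of input chromatin was analysed here. What is given below is therefore a description of this library, in which binding by the mutant cannot be told apart from what the same procedure would give without it. A peak list holds no expression values, so the labelled cell type could not be checked against marker genes.

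ZBTB proteins join an N-terminal BTB domain, through which they pair and recruit corepressors, to C-terminal zinc fingers that contact DNA. SUMOylation is the covalent attachment of a small ubiquitin-like protein to lysines, and on transcription factors it often goes with repression. A transcription factor can occupy promoters at gene starts as well as enhancers, many of which lie far from promoters, including within introns. Since the gene table used gives no exons, exons and introns within the hosts were not told apart.

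The share of deep peaks was close to the share of the genome that is deep inside genes. Deep peaks made up 40.7% of the list, with an exact 95% interval of 37.5% to 44.0%. Stretches that meet the rule hold 1228 Mb, or 40.5% of the bases of the chromosomes that carry peaks. If the peaks of each chromosome were spread evenly over its length, 365.8 of them (40.1%) would be deep, so the observed number was 1.02 times that expectation. The density was 0.303 deep peaks per Mb, against 0.335 per Mb near gene ends and 0.278 per Mb between genes. Near gene ends 233 peaks stood beside 214.1 expected, and between genes 308 stood beside 333.1. All 3 intervals held the expected share. These intervals reflect counting error alone, and they take peaks as independent.

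Before the 5 kb limit was applied, 528 peaks (57.8%) had a summit inside a gene, and the limit removed 156 of them. The peak closest to the limit on the inside was in C10orf143, at 5015 bp from the nearest gene end, with 2.58-fold enrichment. The next was in SOX30, a testis transcription factor of the SOX family, at 5038 bp with 3.35-fold enrichment. Just outside stood a peak in ADAMTS8, a secreted metalloprotease, at 4932 bp with 3.35-fold enrichment, and one in MARCHF11, a membrane-bound ubiquitin ligase, at 4913 bp with 4.16-fold enrichment.

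Deep peaks rested on few reads, and their strength is given beside that of the other peaks. Fold enrichment, the ratio of reads at the summit to the local background after 1 was added to each, had a median of 3.37 (quartiles 3.08 to 3.68) and ranged from 2.56 to 5.14. The median was 3.46 (quartiles 3.13 to 3.78) near gene ends and 3.47 (3.13 to 3.83) between genes. A deep summit rested on a median of 9 reads (quartiles 8 to 10, range 7 to 25) over a background of 1.88 reads. At the lowest background of the list, 1 read more or less moved the fold of a single peak by 0.396. Most deep peaks, 305 of 372 (82.0%), had 10 reads or fewer. The median q-value, the false discovery rate given by the peak caller, was 0.776 in the deep, end and intergenic peaks alike, and 309 deep peaks (83.1%) had a q-value above 0.5.

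Few deep peaks passed a strict limit. A q-value of at most 0.05 was held by 2.96% of the whole list and by 8 deep peaks (2.15%, exact 95% interval 0.933% to 4.19%). At least 4-fold enrichment was reached by 12.4% of the list and by 46 deep peaks (12.4%). Both shares were close to those of the list as a whole, which includes the deep peaks. The q-value limit was met by 16 intergenic peaks (5.19%, interval 3.00% to 8.30%) and by 3 near gene ends (1.29%, interval 0.266% to 3.72%). At least 4-fold enrichment was reached by 11.7% of intergenic peaks and 13.3% of those near gene ends.

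**Figure D1:**
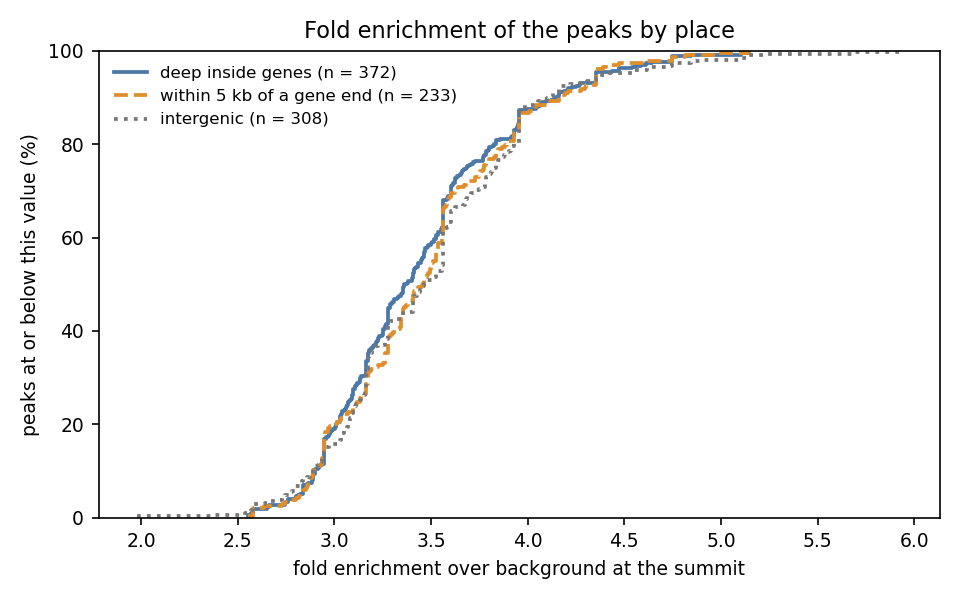
Cumulative share of peaks (vertical axis, percent) at or below each fold enrichment at the summit (horizontal axis), for the 372 deep peaks (solid line), the 233 peaks within 5 kb of a gene end (dashed) and the 308 intergenic peaks (dotted). The lines nearly overlie, with medians of 3.37, 3.46 and 3.47, and above 5.14-fold there are only intergenic peaks.

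These 8 deep peaks, each with a q-value no higher than 0.05, all lay in protein-coding genes. The highest fold, 5.14, was shared by 2 peaks with 12 reads each and a q-value of 0.0130. One of them was at chr17:9880540-9880751 in GLP2R, the receptor for the gut hormone glucagon-like peptide 2, and lay 82.7% of the way from the gene's start to its end. The other was at chr8:71458835-71459046 in EYA1, a phosphatase and transcriptional coactivator of ear and kidney development, 9.608 kb from the nearest gene end. SYT2, a calcium sensor of synaptic vesicle release, held a peak at chr1:202664145-202664338 with 5.11-fold enrichment, 12 reads and a q-value of 0.0135. All 3 rested on a background near the lowest of the list, where a few reads are enough for a high fold.

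The most remote of these 8 peaks was in ATRNL1, a gene for a transmembrane protein related to attractin. It lay at chr10:115537754-115537982, 282.0 kb from the nearest gene end, with 4.84-fold enrichment, 12 reads and a q-value of 0.0312. MAST4, a microtubule-associated kinase, carried a 4.61-fold peak of 13 reads at chr5:67152599-67152789 with a q-value of 0.0372, far towards its 3′ end at 97.1% of its length. PEX7, the receptor that carries a class of enzymes into peroxisomes, held a 4.59-fold peak of 13 reads at chr6:136872890-136873102 with a q-value of 0.0406.

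The lowest q-value did not go with the highest fold. At chr4:67069-67492 in ZNF595, a zinc finger gene near the end of the short arm of chromosome 4, 18 reads over a background of 3.29 gave 4.43-fold enrichment and a q-value of 0.0036. SLC35D1, a transporter of nucleotide sugars into the endoplasmic reticulum, held 16 reads at chr1:67030001-67030192, with 4.20-fold enrichment and a q-value of 0.0286. Both summits had more reads than the other 6, on a higher background.

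Next in fold after ATRNL1 stood 5 deep peaks with 11 reads, the lowest background and an identical 4.75-fold enrichment, with a q-value of 0.0702. They lay in BPNT1, a nucleotidase of sulphate metabolism, in MGLL, the lipase that degrades the endocannabinoid 2-arachidonoylglycerol, in NPFFR2, a neuropeptide receptor, in TMEM132B, a transmembrane protein gene, and in the pseudogene TERF1P7 on the X chromosome. The tenth by fold was in YPEL2, at 4.64-fold with 12 reads and a q-value of 0.0583. Equal values recur in this way because fold and q-value follow from a small whole number of reads and the background.

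The deep peaks were spread over many genes. They had 380 host genes, which is 1.67% of the 22774 genes that contain any stretch more than 5 kb from every gene end. The number expected from the deep length of each gene, with the deep peaks observed on each chromosome taken as given, was 375.3. Since most hosts held 1 deep peak, the number of hosts is largely fixed by the number of deep peaks. The closeness of 380 to 375.3 therefore carries little information. A single host was recorded for 347 peaks, 2 overlapping hosts for 24 and 3 for 1, which gave 398 pairs of peak and host. Most hosts, 362 of 380, held 1 deep peak.

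Protein-coding and long non-coding RNA hosts were close in number to the deep length that each occupies. A protein-coding host was found for 303 deep peaks (81.5%, exact 95% interval 77.1% to 85.3%), beside 79.1% expected. The 293 protein-coding hosts were 2.13% of the 13766 protein-coding genes with a deep stretch. With the observed deep peaks taken as given, 282.9 were expected. A long non-coding RNA gene was host to 84 deep peaks (22.6%, with 22.8% expected), and for 66 of these (17.7%, with 19.2% expected) no other biotype was present. Pseudogenes were host to 3 deep peaks, with 1.72 expected, and transcribed pseudogenes to 1, with 4.42 expected. No deep peak lay in a gene of another biotype, which allows a share of up to 0.987% and stood beside 0.171% expected.

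The hosts were long genes, although less long than an even spread over deep bases would give. Over the 398 pairs, host length had a median of 144.9 kb (quartiles 63.8 to 319.2 kb) and ranged from 12.4 to 2220 kb. All genes with a deep stretch had a median of 35.7 kb, since long genes offer more deep bases. The median expected from deep length was 183.1 kb. For protein-coding hosts the median was 152.6 kb beside 209.9 kb expected, and for other hosts it was 113.0 kb beside 120.2 kb.

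When each deep peak was placed by its longest host, short hosts held more peaks than their deep length gave and the longest held fewer. Hosts under 50 kb carried 64 deep peaks (17.2%, exact 95% interval 13.5% to 21.4%), where length gave 45.8 (12.3%). Hosts of 50 to 100 kb carried 66 beside 60.0 expected, and those of 100 to 200 kb carried 90 beside 83.0. Hosts of 200 to 500 kb carried 97 beside 105.0, and those of 500 kb to 1 Mb carried 38 (10.2%, interval 7.33% to 13.8%) beside 51.7 (13.9%). Hosts of 1 Mb or more carried 17 (4.57%, interval 2.68% to 7.22%) beside 26.4 (7.11%). Intervals of the shortest class and of the class of 500 kb to 1 Mb left out the expected share. A split at 200 kb was chosen after these values were seen, where the classes pass from above to below expectation. It placed 220 deep peaks (59.1%, interval 54.0% to 64.2%) in the shorter hosts beside 50.8% expected. This restates the classes above and adds no support to them.

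**Figure D2:**
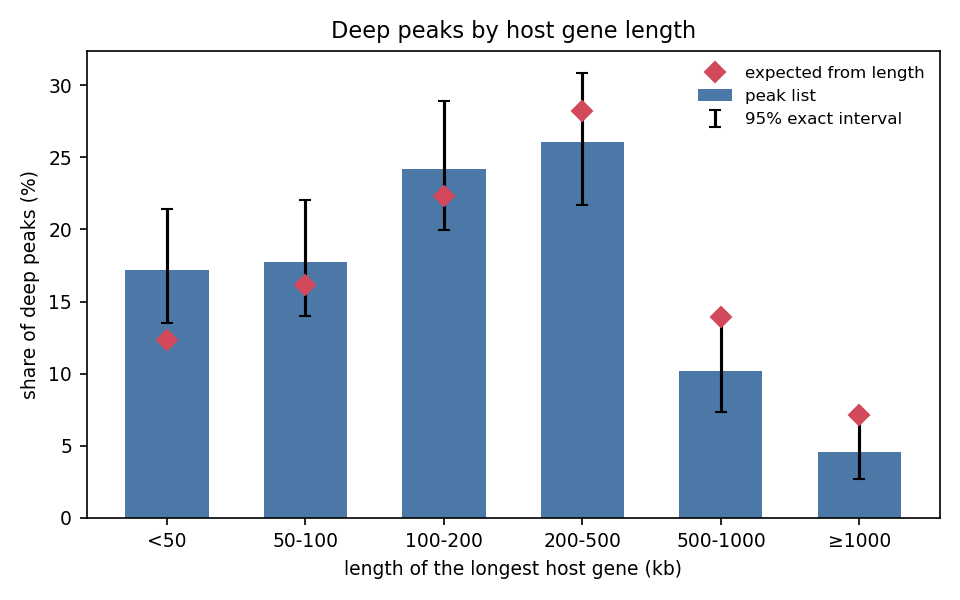
Share of the 372 deep peaks (bars, percent) by the length of the longest host gene in kb, with exact 95% intervals (black lines) and the share expected from deep length (red diamonds). Hosts under 50 kb stand above the expected share, 17.2% against 12.3%, and hosts of 500 kb to 1 Mb stand below it, 10.2% against 13.9%. Hosts of 1 Mb or more hold 4.57% against 7.11%, with an interval that holds the expected share.

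Among the longest human genes, some held a deep peak and many did not. Of 73 genes of 1 Mb or more, 16 held one, where 21.1 were expected. The longest host was DMD, the dystrophin gene of the muscle membrane, with 1 peak of 7 reads and 3.03-fold enrichment in 2220 kb. DLG2, a scaffold of the postsynaptic density, followed with 1 peak of 8 reads and 2.95-fold enrichment in 2173 kb. LRP1B, a large receptor of the LDL receptor family, and CTNNA3, an alpha-catenin of cell junctions, held 1 peak each, both with 9 reads and 3.28-fold enrichment. RBFOX1, CNTNAP2 and PTPRD, which are longer than any host and were looked up after the hosts were known, held 0 deep peaks. Each of them had under 1 expected deep peak, so a count of 0 in them carries little information.

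Further long hosts were PCDH15, PDE4D, DAB1, AGBL4 and PRKG1. Among the 10 longest hosts the highest fold was in DAB1, an adaptor of reelin signalling in neuronal migration, with 12 reads, 4.19-fold enrichment and a q-value of 0.178. PRKG1, a cGMP-dependent protein kinase, held 1 peak of 3.61-fold enrichment. AGBL4, a carboxypeptidase that acts on glutamylated tubulin, held 1 of 3.56-fold. Fold enrichment among these 10 hosts ranged from 2.95 to 4.19, within the range of deep peaks generally.

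No gene held more than 2 deep peaks, and 18 genes held 2, where 17.0 were expected from length. These 18 genes shared 32 peaks in 16 distinct pairs. The gene MROH7 and its readthrough transcript MROH7-TTC4 overlap and hold the same 2 peaks, and so do ATM and C11orf65. Fold enrichment of the 32 peaks ranged from 2.57 to 4.35, and none had a q-value as low as 0.05. The distance between the 2 summits of a pair had a median of 91.2 kb and ranged from 3.331 to 325.8 kb.

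Pairs less than 10 kb apart occurred in 3 places. In ATM, the kinase that senses double-strand breaks in DNA, the summits were 3.331 kb apart, with 9 and 10 reads and 3.28-fold and 3.95-fold enrichment. In MIA3, which loads collagen for export from the endoplasmic reticulum, they were 3.606 kb apart, with 9 reads each and 3.51-fold and 3.61-fold enrichment. MIA3 was the shortest gene with 2 deep peaks, at 49.9 kb, and its deep length gave 0.0121 expected peaks. In MALRD1, a gene linked to bile acid metabolism, they were 4.278 kb apart, with 10 and 8 reads and 3.18-fold and 3.13-fold enrichment.

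ESR1, the oestrogen receptor alpha and a ligand-activated transcription factor, was among the genes with 2 peaks. It held summits 60.6 kb apart with 11 and 9 reads and 3.91-fold and 3.28-fold enrichment. The q-values of these peaks were 0.321 and 0.776.

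The strongest pair was in RPS6KA2, a kinase downstream of ERK. Its 2 peaks had 10 and 11 reads, 4.35-fold and 4.10-fold enrichment and a q-value of 0.262 each. PCDH15, a protocadherin of the hair cell tip link, was the only one of the 18 genes for which length gave more than 1 expected peak, at 1.35. Its peaks had 3.03-fold and 3.28-fold enrichment. CUBN, the intestinal and renal receptor cubilin, had 10 reads at each summit but 2.57-fold and 3.68-fold enrichment, because the background differed.

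The other genes with 2 deep peaks had folds between those extremes. GRIP1, a scaffold of AMPA receptors, held the most widely spaced pair, at 325.8 kb, with 2.95-fold and 3.46-fold enrichment. VPS13B, a lipid transfer protein of the Golgi, held 2.82-fold and 3.60-fold peaks 230.0 kb apart. PDE7B, a cAMP phosphodiesterase, held 3.17-fold and 2.99-fold peaks. TMEFF2, a transmembrane protein with follistatin-like domains, held 3.04-fold and 3.68-fold peaks, and DIP2A held 3.17-fold and 3.80-fold peaks. Peaks of 3.22-fold and 3.33-fold lay in MROH7. ARMCX5-GPRASP2, a readthrough gene on the X chromosome, held peaks of 2.95-fold and 2.81-fold, and the long non-coding RNA gene LOC105376387 held peaks of 3.06-fold and 3.10-fold.

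**Figure D3:**
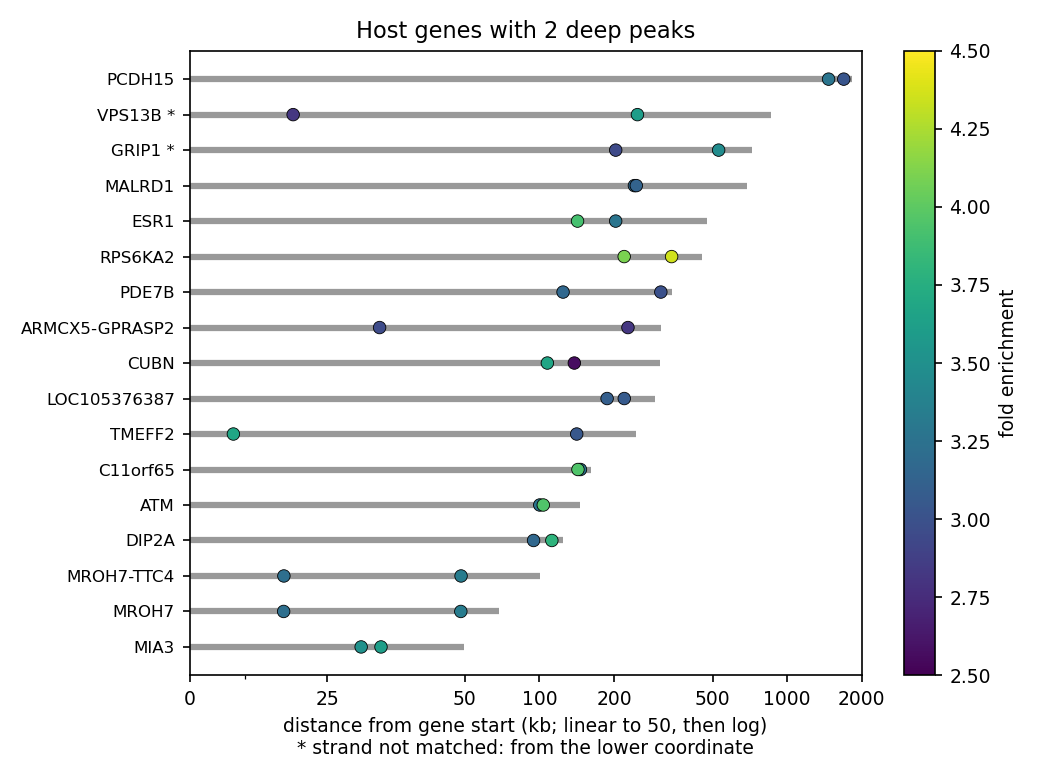
Position of both deep peaks (circles, coloured by fold enrichment) along the genes that held 2 (grey lines, 17 of 18 drawn), as distance from the gene's start in kb on an axis that is linear to 50 and logarithmic beyond; asterisks mark genes placed from the lower coordinate. The circles of ATM, MIA3 and MALRD1 lie within 10 kb of each other, and both circles of RPS6KA2 exceed 4-fold.

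Along the hosts, deep peaks were fewer towards the gene start and more frequent towards the gene end. The strand was known for 298 hosts, which gave 313 pairs of peak and host. Each host, without the 5 kb at either end, was divided into 5 equal segments, numbered along its strand from the gene start. Segment 1 held 40 pairs (12.8%, exact 95% interval 9.29% to 17.0%), beside 19.8% expected from deep length. Segments 2, 3 and 4 held 60 (19.2%), 71 (22.7%) and 63 (20.1%). Segment 5, at the gene end, held 79 (25.2%, interval 20.5% to 30.4%), beside 19.7% expected. When only protein-coding genes were used, the interval of segment 5 (19.5% to 29.7%) held the 19.7% expected under the main setting. With a limit of 20 kb from gene ends, the intervals of segment 1 (9.33% to 21.6%) and segment 5 (17.7% to 32.4%) both held their main expected shares. Expected shares of segments were not recomputed for these settings. Pairs that share a peak in overlapping hosts are not independent. The strand came from the table of promoter sequences, and its start coincided with the gene's end on that strand in 88.8% of 27194 genes.

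Fold enrichment was also read by segment, with no test. The median fold was 3.22 in segment 1, 3.32, 3.30 and 3.35 in segments 2 to 4 and 3.47 in segment 5. Of 39 pairs with at least 4-fold enrichment, 2 lay in segment 1 and 16 in segment 5, a split that was looked at after the positions were known. The 2 strong pairs of segment 1 were in TNRC6A, a component of microRNA silencing, at 4.47-fold and in AHRR, the repressor of the aryl hydrocarbon receptor, at 4.04-fold. Segment 5 held those of GLP2R, MAST4, YPEL2 and TMEM132B, already described. It also held CAMTA1, a calmodulin-binding transcription factor, at 4.47-fold and 98.1% of the gene's length, and CACNA2D3, a calcium channel subunit, at 4.16-fold and 89.7%.

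**Figure D4:**
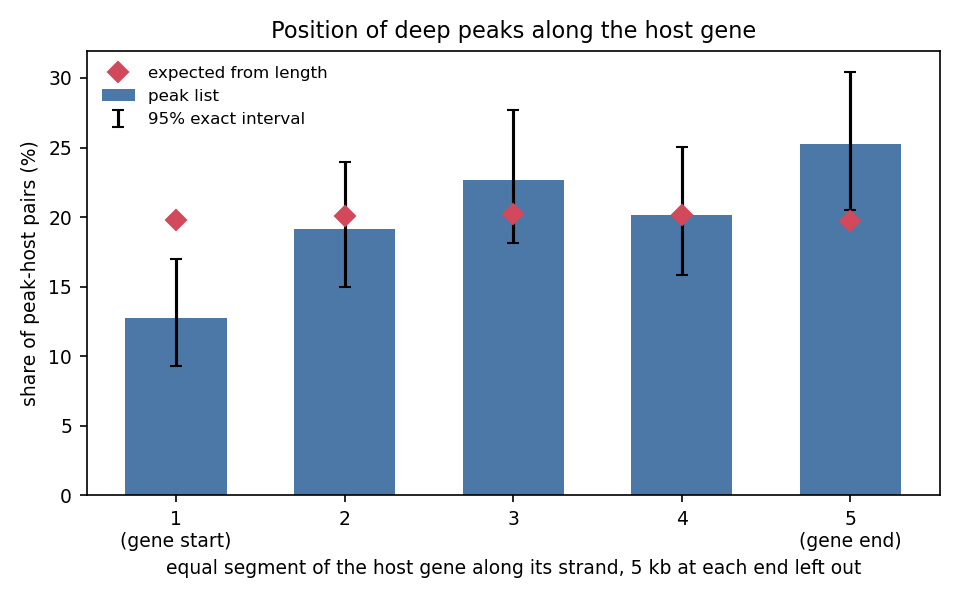
Share of the 313 stranded pairs of deep peak and host gene (bars, percent) by segment of the host, from 1 at its start to 5 at its end, with exact 95% intervals (black lines) and the share expected from deep length (red diamonds). Segment 1 holds 12.8% and lies below its expected share, and segment 5 holds 25.2% and lies above it.

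Distance to the nearest end of any gene, which may be that of a small gene nested in the host, had a median of 19.4 kb (quartiles 10.4 to 37.3 kb) beside 22.2 kb expected. Between 5 and 10 kb there were 85 deep peaks (22.8%, with 21.0% expected), and between 10 and 20 kb there were 106 (28.5%, with 25.1% expected). At 20 to 50 kb there were 114 (30.6%, with 30.9% expected). At 50 to 100 kb there were 44 (11.8%, with 15.0% expected), and beyond 100 kb there were 23 (6.18%, with 7.99% expected). The intervals of all 5 classes held the expected share. The longest distance was 468.5 kb.

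The functions of the hosts were described with 12 lists of gene symbols, each read as the number of its genes with a deep peak beside the number expected from their deep length. Across all protein-coding genes with a deep stretch, 293 hosts stood beside 282.9 expected, with the observed deep peaks taken as given. Counts for the lists were small, and the observed number was within 4 genes of the expected number in every list.

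Genes of the extracellular matrix gave 6 hosts among 71 genes with a deep stretch, beside 2.95 expected. COL9A1, a collagen of cartilage, held a 3.82-fold peak, and COL11A1, another cartilage collagen, held one of 3.46-fold. The laminin subunits LAMC3 and LAMA3, parts of basement membranes, held peaks of 3.56-fold and 3.43-fold. Cyclic nucleotide signalling gave 6 hosts among 62 genes, beside 3.40 expected. These included PRKG1, already described, the phosphodiesterases PDE1A (3.58-fold) and PDE6A (3.56-fold), and ADCY10, the soluble adenylyl cyclase (3.46-fold). These were the 2 lists with the largest excess over length in number of genes, and their 13 peaks had 7 to 12 reads each.

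The cation channel and cadherin lists gave fewer hosts than expected from their length, with counts of 2 each and no test. Voltage-gated and related cation channels gave 2 hosts among 139 genes, beside 5.50 expected. These were CACNA2D3, already described, and KCNN2, a calcium-activated potassium channel, at 2.80-fold. Cadherins and protocadherins, with the catenins counted among them, gave 2 hosts among 88 genes, beside 5.48 expected, namely PCDH15 and CTNNA3.

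Neuronal adhesion and receptor genes stood near their expectation. Synaptic adhesion and axon guidance genes gave 9 hosts among 120, beside 10.4 expected. The strongest was NCAM1, the neural cell adhesion molecule, at 4.35-fold with 10 reads. NEGR1, a neuronal adhesion protein, held a 3.80-fold peak, SLIT3, a guidance ligand, one of 3.60-fold and CNTN4, a contactin, one of 3.56-fold. Glutamate receptors gave 3 hosts among 25 genes, beside 2.41 expected. GRID1, a delta-type receptor, and GRIK4, a kainate receptor subunit, held peaks of 2.95-fold and 2.89-fold.

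Transport genes also stood near their expectation. Solute carriers gave 5 hosts among 323 genes, beside 5.18 expected. After SLC35D1 came SLC35F1 (3.93-fold), SLC3A1, a subunit of a renal cystine transporter (3.66-fold), and SLC35E1 (3.22-fold).

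Genes of common fragile sites, very long genes at which chromosomes break under replication stress, gave 9 hosts among 33, beside 8.20 expected. Besides DAB1 and CTNNA3, already described, they included ESRRG, an orphan nuclear receptor, with a 3.56-fold peak of 8 reads. These genes had a median length of 1113 kb, so 27.3% of them held a deep peak while the number stayed close to what length gave.

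Gene families related to Zbtb21 or to its modification were counted in the same way, with numbers too small to set apart from their length. Zinc finger transcription factors gave 4 hosts among 502 genes, beside 5.30 expected. After ZNF595 came ZNF512 (3.60-fold) and ZNF318 (3.26-fold). The fourth, ZBTB8B, was the 1 host among 31 ZBTB genes with a deep stretch, beside 0.441 expected. Its peak at chr1:32486999-32487215 had 12 reads but only 3.03-fold enrichment and a q-value of 0.776, because its background was high. Corepressors and coactivators gave 1 host among 40 genes, beside 1.04 expected. It was MTA3, a subunit of the NuRD deacetylase complex, with a 3.53-fold peak of 8 reads. None of the 19 genes of the SUMO pathway with a deep stretch held a deep peak, and 0.390 was expected.

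**Figure D5:**
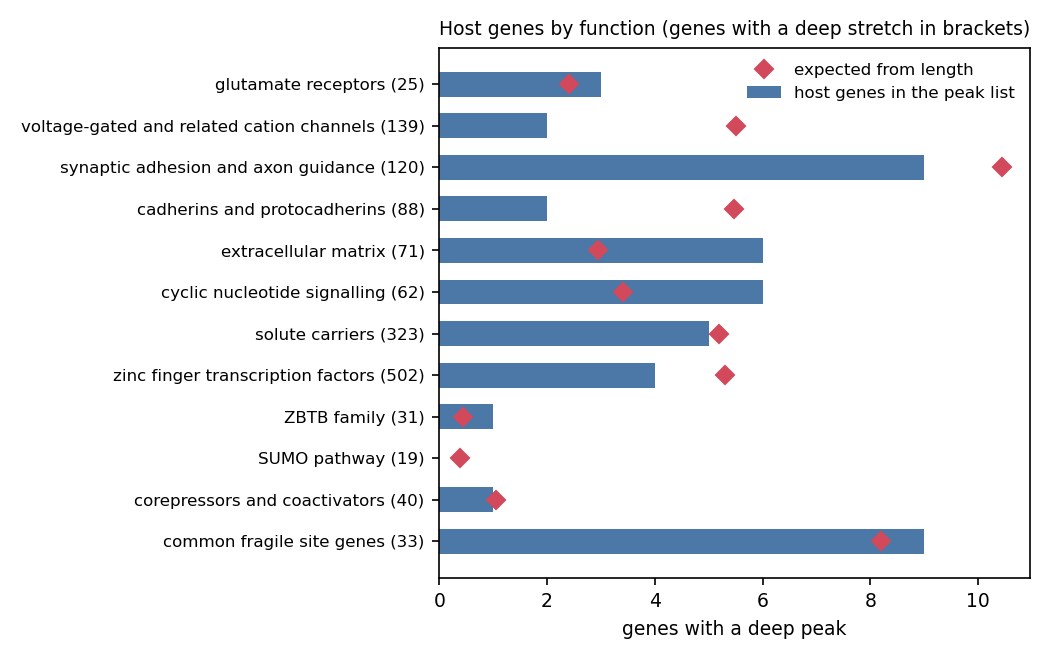
Number of host genes with a deep peak (bars) and number expected from deep length (red diamonds) for each of 12 lists of genes, with the number of genes that have a deep stretch in brackets. In number of genes, the extracellular matrix list stands furthest above its expectation, 6 against 2.95. Cation channel and cadherin genes stand furthest below by the same measure, 2 against 5.50 and 2 against 5.48.

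Of the genes that the study names, or their human orthologs, 5 are reported here and none of these held a deep peak. CDC6, a licensing factor of DNA replication, was the nearest to one, with 189.2 kb to the deep peak in TNS4. HDAC4, a class IIa histone deacetylase, has the most deep length of the 5 and 0.0625 expected peaks, and its nearest deep peak was 2045 kb away. SPI1, a myeloid transcription factor and the human ortholog of the zebrafish gene pu.1 that the study names, and the human ZBTB21 gene were further than 2 Mb from any deep peak. ZBTB14 spans 8.032 kb and so has no stretch that could meet the rule. Each of these genes had under 0.1 expected deep peaks, so a count of 0 in them carries little information at this depth.

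The share of deep peaks was set beside the gene content of each chromosome. On 21 of 23 chromosomes the exact 95% interval of the share held the share of bases that are deep inside genes. Several of these intervals were wide (9.09% to 61.4% on chromosome 15, with 13 peaks). They say little about whether the share of deep peaks followed gene content. On chromosome 22, 14 of 25 peaks were deep (56.0%, interval 34.9% to 75.6%) where 30.5% of bases are. That length includes unsequenced bases, and over the bases of chromosome 22 within 1 Mb of a gene, a measure added after seeing the data, the share was 36.8%, which the interval held. On chromosome 20, 1 of 19 was deep (5.26%, interval 0.133% to 26.0%) where 36.8% of bases are, or 37.0% of those within 1 Mb of a gene, so only chromosome 20 stood apart on both measures. The one deep peak of chromosome 20 was in ATRN, the attractin gene, at 4.56-fold with 12 reads. The density of deep peaks was 0.0421 per Mb of deep sequence on chromosome 20 and 0.904 per Mb on chromosome 22. Chromosome 10 had 0.771 per Mb with 47 deep peaks, and chromosome 1 had 0.447 per Mb with 45. In all, 47 shares were set beside length (places, host lengths, biotypes, segments, distances and chromosomes), and 6 intervals left out the expected share. At a level of 95%, some of so many intervals leave out the expected share even without any departure from it. Shares of the same kind, such as host lengths or segments, depend on each other, so these 6 are not all separate results.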

How the data were processed

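ChIP-seq peaks of 1 library were analysed. The submitters' processing notes name cutadapt 2.5, Bowtie2 2.3.5.1, MACS2 2.1.2, HOMER 4.10.4 and hg38, without giving their settings or any control library. The deposited columns were a score, the fold enrichment (a ratio of summit reads to local background), the −log10 p-value and the −log10 q-value, all written by the authors' peak caller. The score equals 10 times the −log10 p-value with its decimals dropped, in each of the 913 peaks. The total number of reads per library is not given in the sources used here.

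Reads at the summit and background were solved from fold and p-value, assuming that 1 had been added to both numbers before the fold was formed and that the p-value is a Poisson tail. Reads were whole numbers in 913 of 913 peaks, within 0.0005 on the −log10 p scale. Reads without molecular identifiers are not independent molecules.

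Summits were placed in the RefSeq genes of GRCh38.p14, 59094 on the 23 chromosomes with peaks, 19970 of them protein-coding. Genomic positions are 1-based. Expected numbers of deep, gene end and intergenic peaks were calculated by spreading all peaks of each chromosome evenly over its length (GenomeInfoDb 1.38.1). For genes, gene lists, biotypes, lengths, segments and distances, the deep peaks observed on each chromosome were spread evenly over its deep bases. These latter expected numbers therefore take the number of deep peaks on each chromosome as given. No placements were drawn and, with 1 library, no test was run. Unsequenced bases were not removed. Exact Clopper-Pearson intervals have a level of 95%. The gene table gives no strand, so strand came from the RefSeq promoter table. Scripts ran in Python 3.11.15 with scipy 1.17.1 and in R 4.3.3, and were tested on simulated data.

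The members and gene lists were chosen with earlier results of these data known. Named were genes with 2 or more deep peaks, hosts of the 10 highest folds and of q-values of 0.05 or less, the 10 longest hosts, up to 4 hosts per list by fold, and genes of the study or their human orthologs, of which 5 are given; some items under this rule are not reported here. Genes named beyond these were chosen after their values were seen. Alternatives changed the distance from gene ends, the biotypes, the peak position, the cutoffs, the chromosomes, the joining of close peaks, the host choice and the bases of the expectation. GC content and motifs at the summits were left out because no genome sequence was used here.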

Additional observations from a re-analysis of the deposited data

How the results depend on the processing

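Of 78 recomputed values of the planned results, 58 stayed close to the value given above and 20 moved. Shares and ratios were called close inside the main 95% interval, and the median fold within the spread of single peaks. Counts and median host length were called close within a wide fixed factor, so 215.4 kb at 20 kb passed beside 144.9 kb. Joining peaks closer than 1 kb left 372 deep peaks, so its values could hardly move. The tally is therefore a weak guide to stability. With a limit of 2, 10 or 20 kb from gene ends the share of deep peaks was 50.2%, 31.4% or 19.8% by construction. At 20 kb there were 181 deep peaks, 0.917 times the expectation, in 179 hosts, 7 of them with 2 or more. A −log10 q-value of at least 1.3 left 8 deep peaks, 29.6% of those kept and 0.739 times the expectation, in 8 hosts that were all protein-coding (100%), 0 of them with 2 peaks and with a median of 4.73-fold. At least 4-fold enrichment left 46 deep peaks in 51 hosts, 1 with 2 peaks, at a median of 4.35-fold. Using protein-coding genes only made every host protein-coding (100%) by definition. Without chromosomes 1 and 10, 10 genes held 2 or more deep peaks, beside 10.3 expected. Counting only bases within 1 Mb of a gene gave 0.978 times the expectation. For results added after seeing the data, 26 of 30 values stayed close. At least 4-fold enrichment gave 5.13% of pairs in segment 1 of the host (exact 95% interval 0.627% to 17.3%) and 41.0% in segment 5 (25.6% to 57.9%), and the cause was not tested. Hosts under 200 kb held 53.7% at 10 kb, beside 44.4% expected, and 45.9% at 20 kb, beside 33.6%, while among deep peaks of at least 4-fold they held 54.3% (39.0% to 69.1%), an interval that holds the 48.8% expected. No paired analysis was possible because there is 1 library, and for the same reason no replicate could be left out. Most summits rest on 10 reads or fewer, which limits the precision of each fold.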

Other observations

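Long non-coding RNA genes made up 83 of the 380 hosts of deep peaks. Of their symbols, 40 began with LOC, 14 with LINC, 9 ended in DT (divergent transcript) and 9 carried the suffix of an antisense transcript. Their median length was 113.0 kb and the longest spanned 584.3 kb. Fold enrichment of the peaks in them had a median of 3.23 and ranged from 2.65 to 4.35. The highest fold, 4.35, was shared by peaks of 10 reads in LOC102724419, LOC105371132 and LOC105375416. The peak in LOC105371132 also lay in the protein-coding gene RAB11FIP3 and in a pseudogene. TMEM161B-DT, which starts beside the gene TMEM161B, held one of 12 reads at almost the same fold, 4.35, with a q-value of 0.113. These genes were looked up after their values were seen.

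The nearness of deep peaks to other peaks of the list was counted beside that of intergenic and gene end peaks. Another peak lay within 100 kb of 31 deep peaks (8.33%, exact 95% interval 5.73% to 11.6%). For intergenic peaks the number was 51 (16.6%, interval 12.6% to 21.2%), and for peaks near gene ends it was 23 (9.87%). Within 10 kb there were 6 deep, 14 intergenic and 3 gene end peaks with a neighbour. The median distance to the next peak was 769.6 kb for deep, 782.0 kb for intergenic and 770.3 kb for gene end peaks, so the typical spacing was nearly equal. Neighbouring peaks count each other, and the difference was not tested.

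Some genes with much deep length held no deep peak. On chromosome 10, NRG3, a ligand of the ERBB4 receptor, had 0.816 expected and LRMDA had 0.784 expected, and both held 0. EYS, a gene of photoreceptor maintenance on chromosome 6, had 0.649 expected and held 0. HPSE2 and ANK3, the scaffold ankyrin-G, held 1 each, with 0.628 and 0.514 expected. The genes with the most expected deep peaks, PCDH15, CTNNA3, PRKG1 and DMD, each held at least 1. NRG3, LRMDA, EYS, HPSE2 and ANK3 all had under 1 expected, so a count of 0 or 1 in them carries little information.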
